A study of Mus musculus with 9 samples.

Results

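The mitochondrial carrier family Slc25 was followed in kidneys of old and young mice. Members were all genes whose only annotated symbol was Slc25a with a number, and each was read from its brightest probe set over the 9 arrays. This gave 46 members of 19938 genes. Whole kidney RNA came from female wild type mice on a mixed FVB/C57BL6 background. There were 5 mice aged 96 weeks and 4 mice aged 14 weeks, with 1 Affymetrix Mouse Gene 1.0 ST array per mouse. The study's methods name 5 mice at 14 and 96 weeks for the arrays. Why the series held 4 arrays at 14 weeks was not given. Both groups were labelled wild type, and age was the only difference that the labels gave. All values are log2 expression after the robust multi-array average (RMA), so that a difference of 1 is a doubling of the signal.

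Slc25 proteins sit mostly in the inner mitochondrial membrane and exchange small molecules between the cytosol and the matrix. Each is built of repeats of a pair of membrane helices. Some move ATP, ADP and phosphate, others move citric acid cycle intermediates, amino acids, carnitine esters, glutathione, cofactors or iron. Tubule cells of the kidney are rich in mitochondria, and the carriers link their oxidative metabolism to glucose synthesis, ammonia production and salt transport.

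At 96 weeks 2 members were higher and 0 were lower at an adjusted p under 0.05 in limma, the linear model for arrays used throughout, with Benjamini-Hochberg adjustment over all genes. They were Slc25a39, which is needed for glutathione import into mitochondria, and Slc25a10, the dicarboxylate carrier. These 2 are 4.35% of the members, against 6.72% of all genes tested (4.31% higher, 2.4% lower). None of the members reached at least 1.5-fold with an unadjusted p under 0.05, the threshold of the study's methods, which 1.6% of all genes did. At an unadjusted p under 0.05 alone, 4 members were higher and 8 were lower (26.1% of members, against 28.5% of all genes, of which 13.3% higher and 15.3% lower). The median log2 fold change was -0.02 over the members and -0.03 over all genes. For 44 of the 46 members the 95% interval of the log2 fold change lay within 1.5-fold in either direction, and the other 2 were Slc25a24 and Slc25a33. Differences were thus small throughout, between -0.36 for Slc25a33 and 0.40 for Slc25a39.

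The sequences upstream of the start are shown for the 4 members with the smallest p, Slc25a39, Slc25a10, Slc25a29 and Slc25a1. They are the 250 bases before the start in RefSeq (GRCm38.p6), read 5′ to 3′ on the gene's own strand. Capitals mark matches on either strand to the GC box GGGCGG, the CCAAT box CCAAT and the E-box CACGTG. Slc25a39 lies on the minus strand at chr11:102407518-102407767, Slc25a10 on the plus strand at chr11:120491587-120491836, Slc25a29 on the minus strand at chr12:108835877-108836126 and Slc25a1 on the minus strand at chr16:17928220-17928469.
Slc25a39: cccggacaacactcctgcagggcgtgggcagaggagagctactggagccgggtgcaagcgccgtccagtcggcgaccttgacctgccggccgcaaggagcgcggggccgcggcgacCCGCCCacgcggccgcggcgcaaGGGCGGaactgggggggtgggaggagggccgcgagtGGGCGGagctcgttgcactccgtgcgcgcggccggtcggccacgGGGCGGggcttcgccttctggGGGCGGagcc
Slc25a10: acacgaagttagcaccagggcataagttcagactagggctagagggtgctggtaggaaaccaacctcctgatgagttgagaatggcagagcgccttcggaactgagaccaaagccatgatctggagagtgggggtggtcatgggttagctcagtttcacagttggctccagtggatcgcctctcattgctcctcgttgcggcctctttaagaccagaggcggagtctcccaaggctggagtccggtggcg
Slc25a29: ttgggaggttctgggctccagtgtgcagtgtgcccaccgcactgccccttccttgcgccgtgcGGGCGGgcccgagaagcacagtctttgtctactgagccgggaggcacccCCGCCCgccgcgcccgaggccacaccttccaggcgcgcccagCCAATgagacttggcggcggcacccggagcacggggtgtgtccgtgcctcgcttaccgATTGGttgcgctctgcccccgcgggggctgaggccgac
Slc25a1: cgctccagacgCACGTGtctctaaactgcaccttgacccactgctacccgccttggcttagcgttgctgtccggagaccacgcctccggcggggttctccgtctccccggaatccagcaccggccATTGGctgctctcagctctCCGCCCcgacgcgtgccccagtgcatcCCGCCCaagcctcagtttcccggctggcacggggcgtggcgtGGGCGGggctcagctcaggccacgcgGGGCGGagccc
The Slc25a39 window held 5 GC boxes and the Slc25a10 window held 0 matches to any motif searched. Also searched were the ETS core CCGGAAG, the palindromic core of the NRF1 site with 1 base left free and the ERR response element TNAAGGTCA, which none of the 4 windows held. No match in the 4 windows overlapped another. A window was found for 36 of the 46 members. Of these, 24 held a GC box (66.7%, against 46% of 15614 promoters of measured genes), 16 a CCAAT box (44.4% against 35.5%), 6 an ETS core (16.7% against 9.63%), 6 an E-box (16.7% against 7.03%), 2 an NRF1 site (5.56% against 5.84%) and 0 an ERR response element (0.922% of all promoters). These shares are a description of the letters and were not tested.

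Slc25a39 expression was 9.38, 9.40, 9.14, 9.14 and 9.35 in the 96 week old kidneys, against 8.86, 8.93, 8.93 and 8.83 in the 14 week old kidneys. Every old kidney lay above every young one, and replicates 3 and 4 were the lowest of the old. The log2 fold change was 0.40 (standard error 0.07, 1.32-fold, limma, adjusted p = 0.013). The exact two-sided permutation test over the 126 splits of the arrays gave p = 0.0079, the smallest it allows. Slc25a40, its closest relative in the family, averaged 8.44 ± 0.11 (SD) in 5 kidneys at 96 weeks and 8.44 ± 0.21 (SD) in 4 at 14 weeks. Its log2 fold change was -0.01 (95% interval -0.22 to 0.21). Whether the age differences of Slc25a39 and Slc25a40 differ was not tested. A second, dimmer probe set of Slc25a40 averaged 6.73 ± 0.22 (SD) in 5 kidneys at 96 weeks and 6.49 ± 0.40 (SD) in 4 at 14 weeks, and its groups overlapped as well.

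Slc25a10 exchanges malate and succinate for phosphate and sulphur anions. Dicarboxylate carrier expression was 8.07, 8.19, 7.93, 7.93 and 8.05 at 96 weeks, against 7.69, 7.75, 7.71 and 7.43 at 14 weeks. The groups did not overlap, with the lowest value in replicate 4 at 14 weeks. The log2 fold change was 0.39 (standard error 0.08, 1.31-fold, limma, adjusted p = 0.022, exact permutation p = 0.0079). The adjusted p was 0.073 in the methods' t-test, so that this call depended on the test. In that test 1.84% of all genes passed, and 1 member, Slc25a39. With the replicate number as a block 1.85% of all genes and 0 members passed. Replicate 5 had no array at 14 weeks, so that this fit drew the age difference from replicates 1 to 4 alone. It thus had less to measure the spread from than the main fit.

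Slc25a1, the citrate carrier, and Slc25a11, the oxoglutarate carrier, lay in the same direction as Slc25a10 but did not pass. Slc25a1 was named after its values were seen. It had 8.60, 8.78, 8.52, 8.55 and 8.65 at 96 weeks, against 8.40, 8.52, 8.35 and 8.19 at 14 weeks. Replicate 2 at 14 weeks touched the range of the old kidneys. The log2 fold change was 0.25 (standard error 0.076, limma, adjusted p = 0.071) and moved between 0.16 and 0.31 over the alternatives. Slc25a11 had 10.54, 10.49, 10.10, 10.10 and 10.27 at 96 weeks, against 10.16, 10.15, 10.02 and 10.05 at 14 weeks. Replicates 1 and 2 were the highest of the old kidneys, and replicates 3 and 4 lay within the young range. Its log2 fold change was 0.21 (limma, adjusted p = 0.2), and 0.34 without replicates 3 and 4 at 96 weeks (limma, adjusted p = 0.045). These arrays held its lowest old values, so that leaving them out had to raise the estimate. The other 3 members of the di- and tricarboxylate and oxo acid group had estimates below 0. Slc25a21, which carries oxoadipate, had -0.22 (limma, unadjusted p = 0.039, adjusted p = 0.15), Slc25a34 -0.17 (limma, adjusted p = 0.14) and Slc25a35 -0.18 (limma, adjusted p = 0.32). This group of 6 thus split into 3 estimates above 0 and 3 below.

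**Figure D1:**
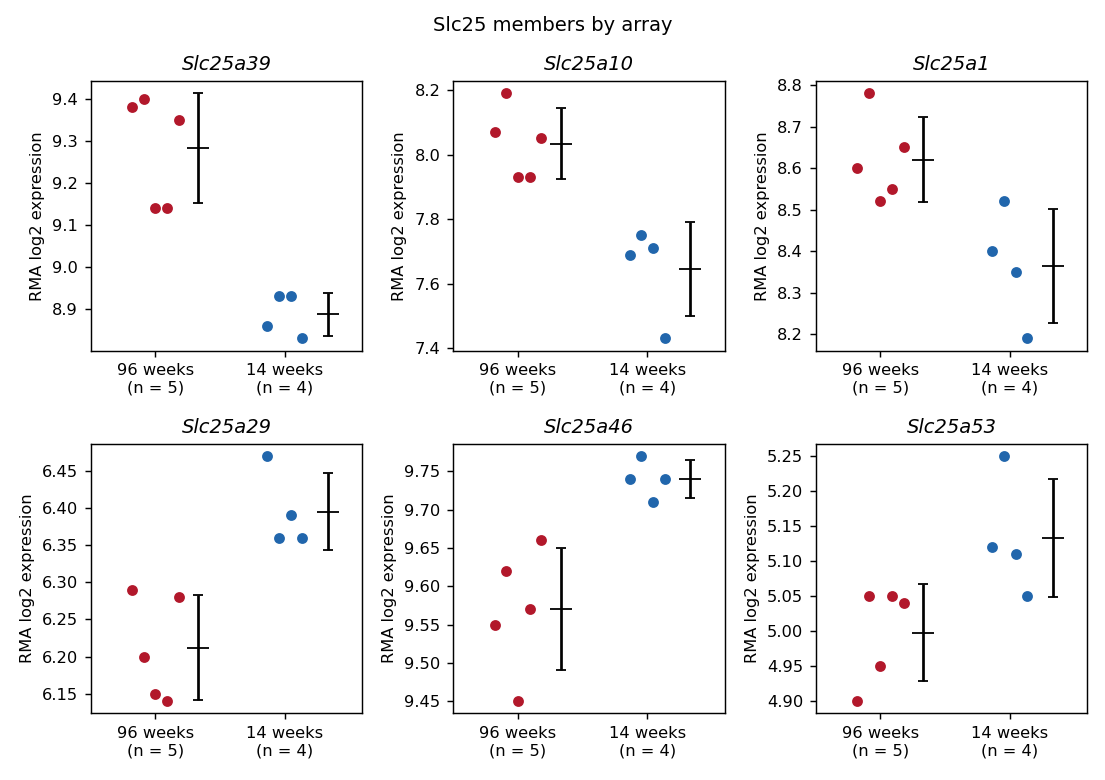
RMA log2 expression of Slc25a39, Slc25a10, Slc25a1, Slc25a29, Slc25a46 and Slc25a53 in each kidney, with 5 mice at 96 weeks on the left and 4 mice at 14 weeks on the right of each panel. Each mouse is a point, and bars give mean and SD. The groups are apart in the panels of Slc25a39, Slc25a10, Slc25a29 and Slc25a46, and overlap in that of Slc25a1. Points are drawn from rounded values, so that the groups of Slc25a53, apart only in the third decimal, touch.

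The groups did not overlap for 5 members, 2 higher and 3 lower at 96 weeks (10.9% of members, against 13.3% of all genes, of which 7.49% higher and 5.79% lower). All 5 also had an unadjusted p under 0.05, and 12.6% of all genes met both criteria. The lower ones were Slc25a29, Slc25a46 and Slc25a53, and none of the 3 passed after adjustment. Slc25a29, a carrier of basic amino acids, had 6.29, 6.20, 6.15, 6.14 and 6.28 at 96 weeks, against 6.47, 6.36, 6.39 and 6.36 at 14 weeks. It differed by -0.18 on the log2 scale (standard error 0.053, limma, adjusted p = 0.067). It passed with a filter on dim genes (limma, adjusted p = 0.0498), where 11.3% of 13956 genes did. Slc25a46 lies in the outer mitochondrial membrane and takes part in mitochondrial fission. It had 9.55, 9.62, 9.45, 9.57 and 9.66 at 96 weeks, against 9.74, 9.77, 9.71 and 9.74 at 14 weeks. The young kidneys lay within a narrow band above all old ones. It differed by -0.17 on the log2 scale (standard error 0.052, limma, adjusted p = 0.077). It passed after a repeated quantile normalization (-0.23, limma, adjusted p = 0.03) and after cyclic loess (-0.22, limma, adjusted p = 0.03), where 4.96% and 4.72% of all genes did. Slc25a53, of unassigned substrate, had 4.90, 5.05, 4.95, 5.05 and 5.04 at 96 weeks, against 5.12, 5.25, 5.11 and 5.05 at 14 weeks. Its groups were apart by the third decimal only (highest 5.046 at 96 weeks, lowest 5.054 at 14 weeks), with a log2 fold change of -0.14 (limma, adjusted p = 0.15).

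Carriers of adenine nucleotides and phosphate, which bring ADP and phosphate in for ATP synthesis and bring ATP out, had no member that passed. Slc25a4 and Slc25a5 are the main ADP/ATP carriers, and Slc25a3 is the phosphate carrier. Slc25a4 ranged between 12.15 and 12.25 at 96 weeks, against 12.23 to 12.30 at 14 weeks. Its log2 fold change was -0.05 (95% interval -0.15 to 0.05). Slc25a5 had 0.05 (95% interval -0.08 to 0.18) and Slc25a3 0.03 (95% interval -0.08 to 0.14), so that changes of 1.5-fold lay outside all 3 intervals. Slc25a5 was covered by 3 probe sets, whose age differences were 0.05, 0.04 and 0.05. Probe sets of Slc25a5 can share signal with near-identical copies, so that its values are uncertain. Slc25a24 and Slc25a25 are calcium-dependent ATP-Mg/phosphate carriers. Slc25a24 had 5.87, 6.13, 6.81, 6.55 and 5.98 at 96 weeks, against 6.13, 6.26, 5.71 and 6.11 at 14 weeks, with replicates 3 and 4 highest among the old kidneys. Its log2 fold change was 0.22 (95% interval -0.21 to 0.64). Slc25a25 had 7.53, 7.40, 6.93, 6.67 and 6.66 at 96 weeks, against 7.24, 7.35, 7.29 and 6.74 at 14 weeks, and its log2 fold change was -0.12 (95% interval -0.57 to 0.33). The other members of this group, Slc25a23, Slc25a31 and Slc25a41, had estimates of -0.05, -0.06 and -0.05.

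Of 12 carriers of amino acids, carnitine and glutathione, only Slc25a39 passed, and 6 estimates lay above 0 and 6 below. The aspartate/glutamate carriers of the malate-aspartate shuttle had log2 fold changes of -0.06 (Slc25a12, 95% interval -0.21 to 0.08) and 0.06 (Slc25a13, 95% interval -0.12 to 0.24). The glutamate carriers Slc25a18 and Slc25a22 had -0.11 and -0.12. The ornithine carriers had 0.14 (Slc25a15, limma, unadjusted p = 0.054) and 0.00 (Slc25a2). Slc25a20, which brings acylcarnitines in for fatty acid oxidation, had 0.08 (95% interval -0.09 to 0.25). The glycine carrier Slc25a38 had 0.02, and Slc25a44, a carrier of branched-chain amino acids, 0.05.

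None of the 7 carriers of other nucleotides and cofactors passed, and the 2 with an unadjusted p under 0.05 had estimates of opposite sign. Slc25a26, which brings S-adenosylmethionine into the matrix, had a log2 fold change of 0.17 (limma, unadjusted p = 0.024, adjusted p = 0.13). Slc25a33, a pyrimidine nucleotide carrier, had 5.69, 5.48, 5.08, 5.49 and 5.52 at 96 weeks, against 6.15, 5.44, 5.88 and 5.77 at 14 weeks. Replicate 2 at 14 weeks lay among the old kidneys. The log2 fold change was -0.36 (standard error 0.15, limma, adjusted p = 0.15). Slc25a36, of the same substrate class, had -0.11 in its brighter probe set and -0.16 in its dimmer one. Estimates for Slc25a17 (peroxisomal), Slc25a32 (folate), Slc25a42 (coenzyme A) and Slc25a51 (NAD) lay between 0.03 and 0.15. The mitoferrins, which bring iron in for haem and iron-sulphur clusters, had 0.00 (Slc25a37) and 0.10 (Slc25a28, 95% interval -0.05 to 0.26).

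Of the relatives of the uncoupling proteins, Slc25a30, known as kidney mitochondrial carrier protein, had 9.21, 9.59, 9.61, 8.88 and 9.23 at 96 weeks, against 9.21, 9.21, 8.95 and 9.16 at 14 weeks. Its log2 fold change was 0.17 (95% interval -0.14 to 0.48). Slc25a14 had 0.10 and Slc25a27 -0.10, and neither passed. All 8 members to which no substrate was assigned here had estimates below 0, between -0.19 (Slc25a48) and -0.04 (Slc25a54), and none passed. Of these, 4 had an unadjusted p under 0.05, namely Slc25a43, Slc25a46, Slc25a47 and Slc25a53 (28.5% of all genes did, 15.3% as lower). All but Slc25a16 and Slc25a46 had a mean signal below 7.52, where 9077 of 13550 genes had estimates below 0. After a repeated quantile normalization or cyclic loess, 7 of the 8 estimates lay below 0, and Slc25a46 passed. Without replicates 3 and 4 at 96 weeks it was also 7 of the 8.

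**Figure D2:**
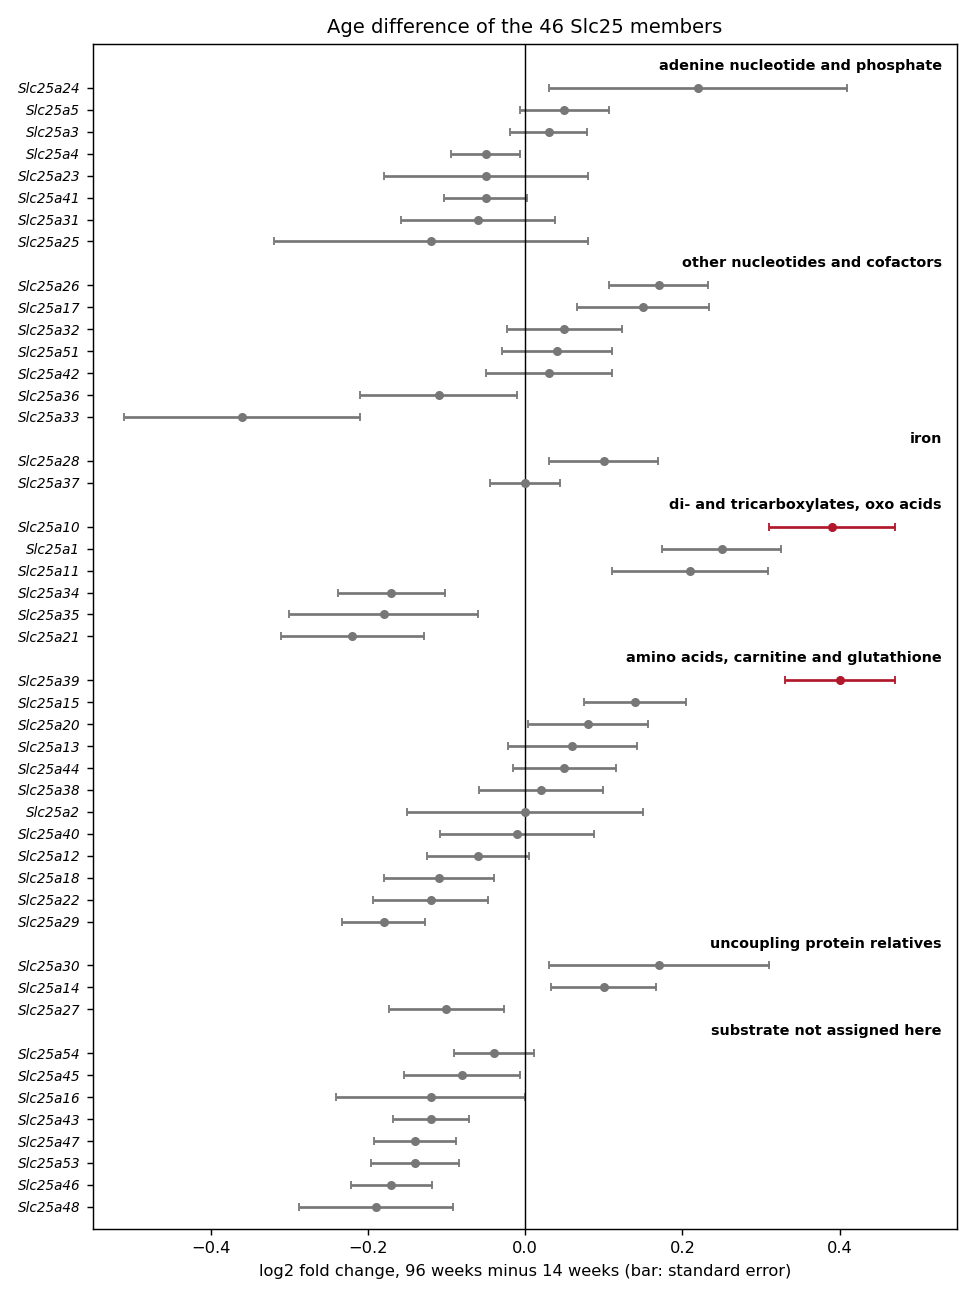
Log2 fold change (96 weeks minus 14 weeks) of the 46 members, grouped by what they carry. Bars are standard errors from limma; red marks the members at an adjusted p under 0.05, Slc25a39 at 0.40 and Slc25a10 at 0.39, and all others are grey.

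The direction of the estimates moved with the brightness of the probe set and with the scaling. Of the 23 brighter members 14 had estimates above 0, against 6 of the 23 dimmer ones, with medians of 0.05 and -0.08, in a split chosen after the values were seen. All genes behaved in the same way at the same signal limit of 7.52, with medians of 0.06 and -0.06. After a repeated quantile normalization 10 of the brighter and 8 of the dimmer members lay above 0, with medians of -0.02 and -0.05. The deposited arrays were not fully aligned, since their upper quartile over all probe sets lay between 7.83 and 7.88 at 96 weeks, against 7.77 to 7.82 at 14 weeks. Calls over all genes were 860 higher and 479 lower, and 484 higher and 505 lower after the repeated normalization. Slc25a39 (0.32, limma, adjusted p = 0.023) and Slc25a10 (0.30, limma, adjusted p = 0.046) passed there as well.

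Spread between mice was read from the SD of each member. The SD was larger at 96 weeks for 33 of the 46 members (71.7%, against 58.9% of all genes), and its median was 0.12 at 96 weeks, against 0.07 at 14 weeks. Over all genes the median SD was 0.11 at 96 weeks, against 0.10 at 14 weeks, and the difference in spread was not tested. Replicate 2 at 96 weeks held the highest old value for 21 members (45.7%, against 25.5% of all genes) and replicate 4 the lowest for 18 (39.1% against 25.3%). Centred on each member's mean, the members averaged 0.02, 0.10, -0.06, -0.07 and 0.00 in the old kidneys, against 0.03, 0.04, -0.02 and -0.04 in the young kidneys. The groups overlapped in this mean.

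**Figure D3:**
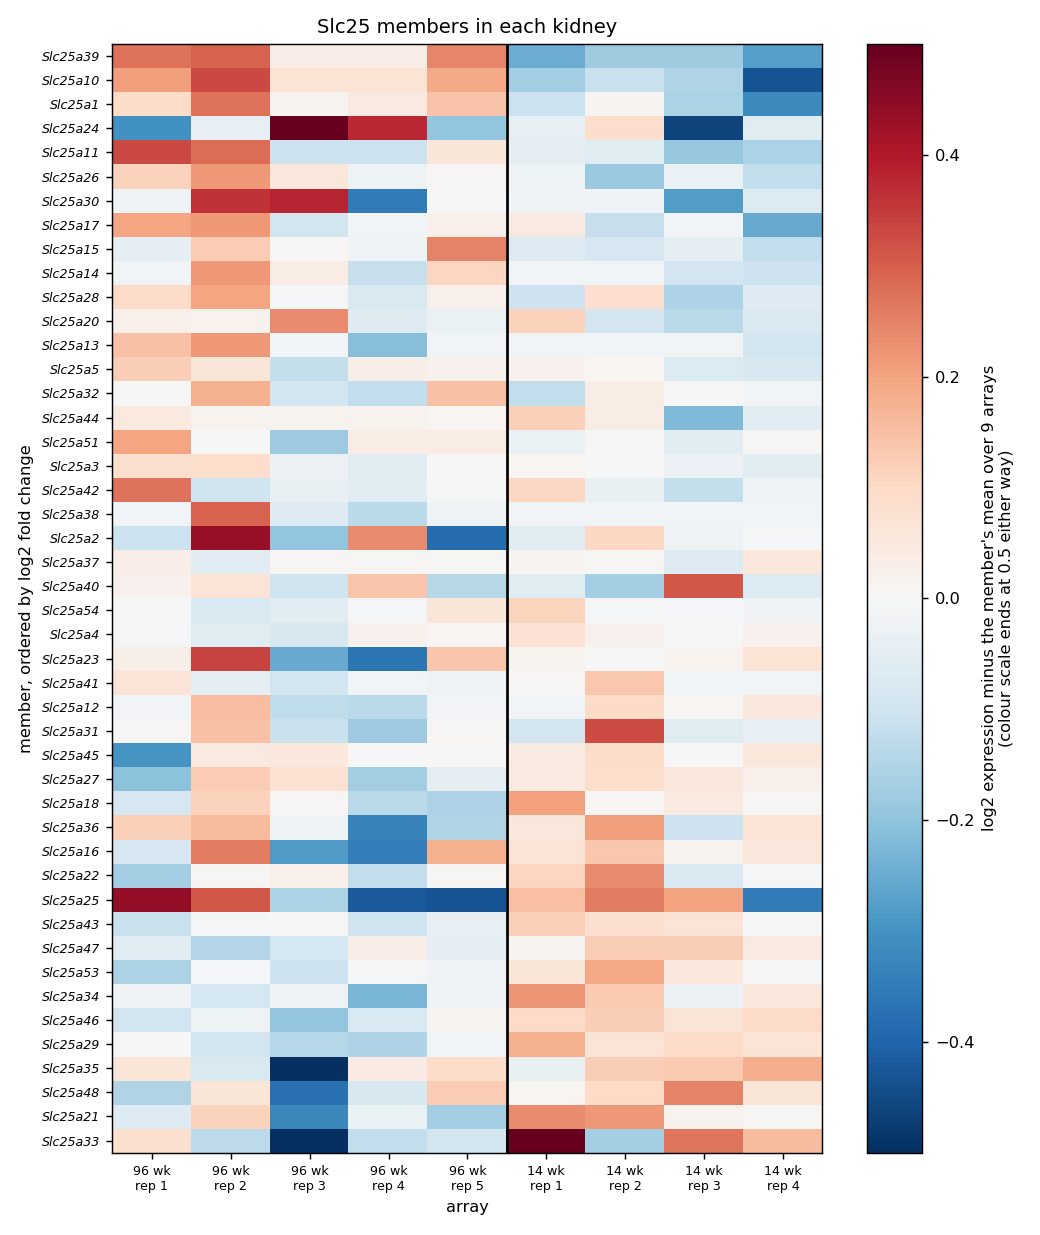
Log2 expression of the 46 members in each kidney, minus the member's mean over the 9 arrays, with 96 weeks left of the line and 14 weeks right of it. Red is above and blue below the mean; Slc25a39 and Slc25a10 at the top are red in all old and blue in all young kidneys, and replicate 2 at 96 weeks is the highest old kidney for 21 members.

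Cell type markers also differed among the old kidneys. The mean of 7 proximal tubule markers, centred in the same way, was 0.15 in replicate 2 and -0.21 in replicate 4, with the other old kidneys between -0.02 and -0.01 and the young ones between -0.03 and 0.05. This order of replicates 2 and 4 was not particular to the proximal tubule. It also held for markers of thick ascending limb (0.17 and -0.11), collecting duct principal cells (0.15 and -0.10), intercalated cells (0.12 and -0.15) and podocytes (0.24 and -0.16). Markers of distal tubule (0.25 and -0.22), endothelial cells (0.20 and 0.03) and erythroid cells (0.08 and -0.11) had this order as well. Fibroblast and pericyte markers had the opposite order (0.05 and 0.17), as did adipocyte markers (-0.08 and -0.06) and the immune cell markers below. The mean of 4 distal tubule markers was -1.0 in replicate 3 at 96 weeks, against -0.22 to 0.25 in the other old kidneys and 0.09 to 0.20 in the young ones. The mean of 5 macrophage markers was 0.84 and 1.00 in replicates 3 and 4 at 96 weeks, and lay between 0.05 and 1.00 at that age, against -0.67 to -0.42 at 14 weeks. The mean of 5 B cell and plasma cell markers lay between 0.11 and 1.67 at 96 weeks, against -1.09 to -0.96 at 14 weeks. T cell markers overlapped between the ages (-0.43 to 1.42 at 96 weeks, -0.38 to -0.24 at 14 weeks). In whole tissue, fewer cells of a type and less RNA per cell cannot be told apart, and the part of the cell makeup in the values of the members was not tested. Without replicates 3 and 4 at 96 weeks the log2 fold changes were 0.49 for Slc25a39 (limma, adjusted p = 0.0051) and 0.46 for Slc25a10 (limma, adjusted p = 0.028). These arrays held the lowest old values of both genes, so that leaving them out had to raise both estimates. With Slc25a11, whose lowest old values also lay in these arrays, 3 members passed there (5.14% of all genes). Markers of proximal tubule and thick ascending limb were among the brightest genes of all arrays, with Lrp2 and Umod both at the 99.9th percentile of mean signal.

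The carriers were set beside other families with mitochondrial or transport roles, with 2 of the 46 members called (4.35%, against 6.72% of all genes). Of 34 Nduf genes, subunits of complex I of the respiratory chain, 10 were higher and 0 lower after adjustment in limma (29.4%), with a median log2 fold change of 0.24. Of 74 genes of mitochondrial ribosomal proteins 14 were higher and 0 lower (18.9%), with a median of 0.15. Of 277 other solute carrier genes 15 were higher and 16 lower (11.2%), with a median of -0.02. The median of the Slc25 members was -0.02, which equalled that of the other solute carriers and was below those of both mitochondrial families. After a repeated quantile normalization the medians were -0.04 for the members, 0.17 for Nduf genes, 0.07 for ribosomal proteins and -0.03 for other solute carriers. Differences between families were not tested. The counts of Nduf genes depended on single arrays, with 5 and 4 without replicates 3 and 4 at 14 weeks in turn and 6 without replicate 2 or 5 at 96 weeks. Of the ribosomal proteins 4 passed without replicate 3 or 4 at 14 weeks, and between 6 and 9 when any other array was left out except replicate 3 at 96 weeks, where 14 did. Of the other solute carriers 11 passed without replicate 4 at 14 weeks (3.97%, against 4.35% of the members and 2.65% of all genes), 15 without replicate 3 and 17 without replicate 1 or 2 at that age. Without replicates 1 and 2 at 96 weeks in turn 17 and 18 passed, and without replicates 3, 4 and 5 between 21 and 28. In the methods' t-test 1 Nduf gene, 3 ribosomal protein genes and 5 other solute carriers passed (1.81% of the last, against 2.17% of the members and 1.84% of all genes), so that the order of the members and the other solute carriers depended on the test and on single arrays. With the replicate block 3 Nduf genes, 3 ribosomal protein genes and 11 other solute carriers passed. Of the members 2 passed whichever single array was left out (2.65% to 5.69% of all genes).

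**Figure D4:**
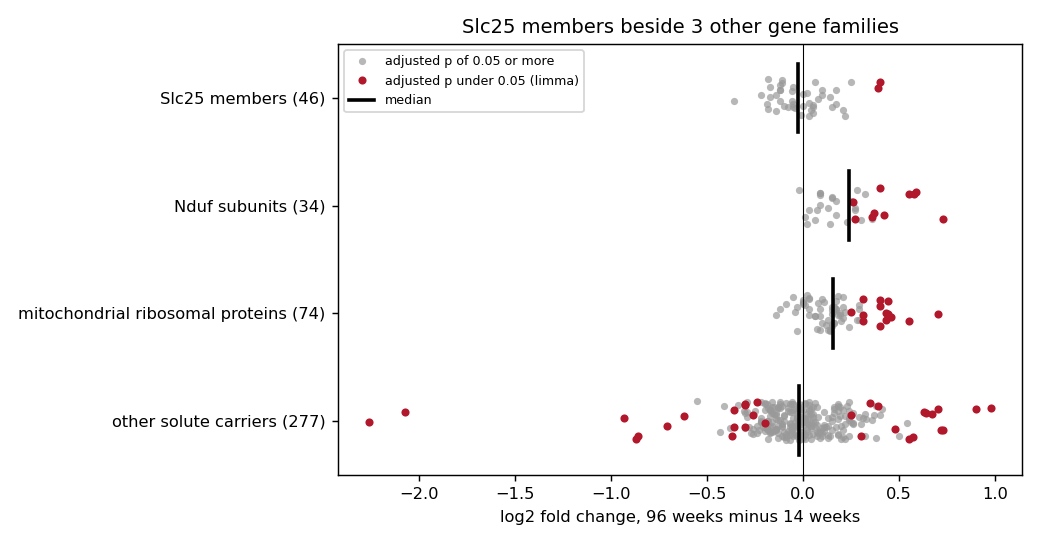
Log2 fold change (96 weeks minus 14 weeks) of the 46 Slc25 members, 34 Nduf subunits of complex I, 74 mitochondrial ribosomal proteins and 277 other solute carriers. Points are genes, red where they passed in limma, and the black line is the median, at -0.02, 0.24, 0.15 and -0.02.

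Genes that work beside the carriers were read from 11 lists with 101 measured genes, of which 9 passed in limma as higher and 1 as lower, again with adjustment over all genes (4.31% of which were higher and 2.4% lower). The count of higher genes depended on single arrays, and was 4 when replicate 3 or replicate 4 at 14 weeks was left out (3.2% and 2.65% of all genes passed in either direction) and 5 when replicate 1 at 96 weeks was (4.17%). Leaving out both replicates 3 and 4 at 96 weeks gave 16 (5.14%). The count was 5 after a repeated quantile normalization (4.96%), 3 in the methods' t-test (1.84%) and 2 with the replicate block (1.85%). Mtch1 passed under every alternative that was run. Carriers listed under other symbols had 1 of 4 higher. This was Mtch1, a carrier-like protein of the outer membrane, with 10.29, 10.56, 10.28, 10.14 and 10.32 at 96 weeks, against 9.83, 9.74, 9.78 and 9.56 at 14 weeks. The groups lay clearly apart, with a log2 fold change of 0.59 (standard error 0.085, 1.51-fold, limma, adjusted p = 0.0064). Its relative Mtch2 had 0.10 (limma, adjusted p = 0.27). Ucp1, the uncoupling protein of brown fat, ranged between 4.15 and 4.71 at 96 weeks, against 4.21 to 6.88 at 14 weeks. The highest value was that of replicate 2 at 14 weeks. In that kidney 4 adipocyte markers averaged 0.83, against -0.16 to -0.05 in the other young kidneys. Ucp1 is among these 4, so that its own high value raised this mean, and a mean without Ucp1 was not taken.

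Import of carrier proteins runs through receptors and the channel of the outer membrane, small chaperones of the intermembrane space and the TIM22 complex of the inner membrane. Of 15 such genes 4 were higher and 0 lower (4.31% and 2.4% of all genes). Timm22, the channel through which carriers enter the inner membrane, had 7.42, 7.27, 7.33, 7.27 and 7.53 at 96 weeks, against 7.16, 7.07, 6.96 and 6.92 at 14 weeks. Its values did not overlap between the ages (log2 fold change 0.33, standard error 0.073, limma, adjusted p = 0.027). The chaperone genes Timm13 and Timm8b had 0.37 (limma, adjusted p = 0.01) and 0.32 (limma, adjusted p = 0.034), and Tomm5, a small subunit of the outer membrane channel, 0.61 (limma, adjusted p = 0.012). Only Timm13 and Tomm5 of these 4 passed after a repeated quantile normalization, and when replicate 2, 3 or 4 at 14 weeks or replicate 1 at 96 weeks was left out. Timm8b was also lost without replicate 2 or 5 at 96 weeks. In the methods' t-test only Timm13 passed, and with the replicate block 0 of the 15 did.

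Among enzymes that use the carried molecules, 4 more genes passed, all as higher (4.31% of all genes were higher and 2.4% lower). They were 2 of 12 malate, citrate and oxoglutarate enzymes, 1 of 6 carnitine enzymes and 1 of 8 cofactor enzymes. The lists of 9 glutamate, ornithine and glycine, 7 folate and one-carbon, and 9 iron-sulphur and haem enzymes had 0. Mdh2, the malate dehydrogenase of the matrix, had 12.01, 12.02, 11.79, 11.91 and 11.89 at 96 weeks, against 11.65, 11.72, 11.57 and 11.56 at 14 weeks (log2 fold change 0.30, limma, adjusted p = 0.024). Acly, which splits exported citrate, and Cpt2, which frees acyl groups from carnitine behind Slc25a20, were higher by 0.44 and 0.41. Mdh2 did not pass without replicate 1, 3 or 4 at 14 weeks, and Cpt2 not without replicate 3 or 4 at 14 weeks or replicate 1 at 96 weeks. Acly did not pass after a repeated quantile normalization, nor when any single array other than replicate 4 at 96 weeks was left out. None of Mdh2, Acly and Cpt2 passed in the methods' t-test, and of them only Acly passed with the replicate block. Cpt2 was also lost when both replicates 3 and 4 at 96 weeks were left out. Pank2, which starts coenzyme A synthesis, averaged 9.40 ± 0.03 (SD) in 5 kidneys at 96 weeks and 9.10 ± 0.09 (SD) in 4 at 14 weeks (log2 fold change 0.30, limma, adjusted p = 0.012). Pank2 passed in the methods' t-test, but not after a repeated quantile normalization or with the replicate block. The other Pank genes of this list did not follow it. Pank1 had -0.35 (limma, adjusted p = 0.06) with groups that did not overlap, Pank3 -0.13 (limma, adjusted p = 0.12) and Pank4 0.00. Pank1 passed as lower after a repeated quantile normalization. The 5 lists without a call were other mitochondrial transporters, partners of ATP and pores, glutamate, ornithine and glycine enzymes, folate and one-carbon enzymes, and iron-sulphur and haem enzymes. In these the smallest p belonged to Vdac1 (0.21, limma, adjusted p = 0.064) and Vdac2 (0.17), pores of the outer membrane, to the adenylate kinase Ak4 (-0.32) and the creatine kinase Ckmt1 (0.21), to the arginase Arg2 (0.67, limma, adjusted p = 0.055) and Amt (0.23) of glycine cleavage, to Shmt1 (0.16) and Mthfd2 (0.22) of folate metabolism, and to Ppox (0.28, limma, adjusted p = 0.054) of haem synthesis and the desulphurase Nfs1 (0.31).

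Of 8 regulators of mitochondrial genes 1 was lower and 0 were higher (2.4% and 4.31% of all genes). Ppargc1a, the coactivator that drives expression of mitochondrial genes, had 10.92, 10.75, 10.44, 10.71 and 10.80 at 96 weeks, against 11.21, 11.22, 11.08 and 11.36 at 14 weeks. Every old kidney lay below every young one, and replicate 3 was lowest. The log2 fold change was -0.49 (standard error 0.094, limma, adjusted p = 0.017), and it also passed after a repeated quantile normalization but not without replicate 4 at 14 weeks or in the methods' t-test. The median over the 8 regulators was -0.04.

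**Figure D5:**
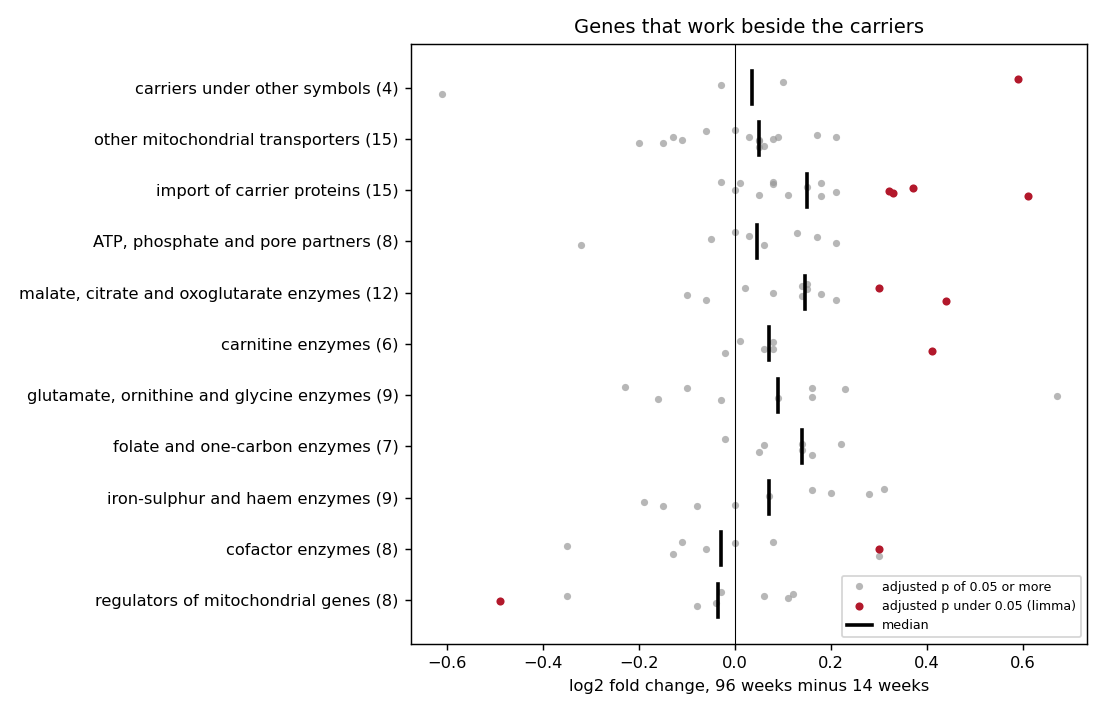
Log2 fold change (96 weeks minus 14 weeks) of 101 genes in 11 lists of proteins that work beside the carriers. Points are genes, red where they passed in limma, with a black line at each list's median. The 9 red points above 0 stand against 1, Ppargc1a at -0.49, below it.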

How the data were processed

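The deposited values are log2 expression for 35557 probe sets, which the authors made from the scans by RMA and quantile normalization (Affymetrix Power Tools 1.12.0). Neither scan dates nor the genome build of the array annotation were given in the sources used here. Of the probe sets 21789 carried 1 gene symbol, 1621 several and 12147 none. Only those with 1 symbol were used, and the brightest stood for a gene. Of the 46 members 3 had more than 1 probe set. Genes lacking such a probe set were not analysed here.

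Ages were compared with limma 3.58.1 in R 4.3.3, with Benjamini-Hochberg adjustment over all genes at 0.05. Exact permutation tests used the absolute difference of means (Python 3.11.15). Simulated arrays with known changes were used to check the fit. Array pairs correlated between 0.978 and 0.992, so that none was a duplicate. The p-values rest on the spread between mice and treat the mice as independent. The labels do not give litters, so that this could not be checked.

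The members, role groups and gene lists were chosen with earlier results of these data known. Values per array were given for members past the threshold and for those with an unadjusted p under 0.05 whose groups did not overlap, and of each list the genes that passed or, if none did, the 2 with the smallest p were named. Other members with values per array were chosen after their values were seen. Alternatives were the methods' t-test, array weights, a trended and robust prior, removal of genes in the dimmest 30% by mean signal, 3 rescalings between arrays, averaged probe sets, a replicate block, and leaving out arrays. Promoter windows came from RefSeq.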

Additional observations from a re-analysis of the deposited data

Results flagged for a closer look

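Of 92 groups of values (46 members at 2 ages), 10 held an array set apart from the others relative to the range of the group (10.9%, against 14.1% of the groups over all genes). Chance flags about 1 in 20 groups of normal values. For 4 of these members, Slc25a13, Slc25a41, Slc25a44 and Slc25a54, 3 or more arrays shared 1 value. In the flagged groups of Slc25a13 and Slc25a44, 3 arrays were tied, so that small gaps were enough. For Slc25a41 and Slc25a54 the tied arrays spanned both ages, and only 2 of them lay in the flagged group. At 96 weeks replicate 1 was highest for Slc25a42 (7.77, the others at most 7.49) and Slc25a44 (7.19, the others at most 7.16), and lowest for Slc25a45 (6.51, the others at least 6.81). Replicate 2 at 96 weeks was highest for Slc25a38 (7.24, the others at most 6.93). Replicate 3 at 96 weeks was highest for Slc25a20 (9.25, the others at most 9.04) and lowest for Slc25a35 (7.25, the others at least 7.69). At 14 weeks replicate 1 was highest for Slc25a54 (3.64, the others at most 3.52), and replicate 2 for Slc25a31 (4.09, the others at most 3.72) and Slc25a41 (5.52, the others at most 5.39). Replicate 4 at 14 weeks was lowest for Slc25a13 (8.82), where the other 3 young kidneys shared the value 8.897.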

How the results depend on the processing

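Over 19 alternatives, 13 members (the 12 with an unadjusted p under 0.05, and Slc25a11) gave 246 values; 239 kept their direction and side of the threshold, 3 were weaker, 4 were stronger and 0 reversed. The count of higher members was 1 in the methods' t-test (Slc25a39) and 0 with the replicate block, where the adjusted p from limma was 0.06 for Slc25a39 and 0.052 for Slc25a10 and 1.85% of all genes passed. In the block fit replicate 5 at 96 weeks had no young counterpart, so that it did not enter the age difference. The labels do not say what the replicate numbers stand for. Deviations of same-numbered arrays correlated between -0.037 and 0.076, and only those of replicate 1 matched their own number best. Whether same-numbered arrays were handled together was not tested. The count of lower members was 1 with the filter on dim genes (Slc25a29), and 1 after a repeated quantile normalization and 1 after cyclic loess (Slc25a46 both times). Without each array in turn the counts were 2 higher and 0 lower, and the median log2 fold change lay between -0.04 and 0.00. No member reached 1.5-fold with an unadjusted p under 0.05 in any alternative. The number of arrays limits the precision, with a median standard error of 0.073 over the members. Signal over background was not given, so that dim members could not be told from absent ones.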

Other observations

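For 9 of the 46 members at least 3 arrays shared 1 value to all deposited decimals (19.6%, against 33.3% of all genes). The most shared was that of Slc25a13, 8.897 in 5 arrays of both ages (2 old and 3 young kidneys). Slc25a37 had 7.179 in 4 arrays. Why arrays shared values was not tested.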
